A study of Mus musculus with 72 samples.

Results

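The major urinary protein genes described here are Mup3, Mup5, Mup8, Mup20 and Mup21, taken by symbol from a liver gene count table in which they are 5 of 22823 rows. They are also 5 of the 42 rows whose symbol starts with Mup, of which 20 are genes and 22 are pseudogenes. The libraries came from C57BL/6 mice, given as C57BL/6J in the growth protocol, that ate the MCD diet (deficient in methionine and choline) or an isocaloric control food for 11 days. No mouse carried an engineered allele according to the labels. Mice were 8 to 12 weeks old, were housed singly in 12:12 light and dark for 10 days and in constant darkness on the last day, and were killed at circadian time (CT) 0, 4, 8, 12, 16 or 20 h. Each of the 12 groups of diet and time held 3 liver libraries, 2 from males and 1 from a female, so that the 36 libraries comprise 12 control males, 6 control females, 12 MCD males and 6 MCD females. A further 36 libraries of the same design came from laser-dissected suprachiasmatic nucleus (SCN), the brain's circadian pacemaker.

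Major urinary proteins are small secreted lipocalins, barrel-shaped carriers of volatile ligands. In the mouse they are made in large amounts by hepatocytes, pass through the blood into the urine and serve there as scent signals and pheromone carriers. Liver Mup transcription is known to be higher in males, and to depend on pulsatile growth hormone through its receptor and STAT5b, with further input from androgen, thyroid hormone and glucocorticoid. Mup20 encodes darcin, the male pheromone that attracts females. The genes lie in a tandem cluster of near copies, which limits how well short reads can be assigned to each of them. Food without methionine and choline is a standard way to bring about fatty liver in mice.

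The 5 genes lie on the minus strand of chromosome 4. In the GRCm38 build with the GENCODE M21 annotation, which is not the GRCm39 build that the submitters' processing notes name, the positions are chr4:62083476-62087342 for Mup3, chr4:61831319-61835233 for Mup5, chr4:60218621-60222599 for Mup8, chr4:62050234-62054158 for Mup20 and chr4:62147932-62150863 for Mup21. No annotated gene overlaps any of them. A stretch of 60 coding bases, chosen as the one without gaps that holds the most differing columns, shows how the copies differ. The lines run 5′ to 3′ along the transcript, and capitals mark the 25 columns at which the 5 genes are not all alike.
Mup3: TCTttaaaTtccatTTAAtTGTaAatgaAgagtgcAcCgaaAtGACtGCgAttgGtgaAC
Mup5: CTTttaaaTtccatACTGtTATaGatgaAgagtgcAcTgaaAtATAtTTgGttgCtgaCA
Mup8: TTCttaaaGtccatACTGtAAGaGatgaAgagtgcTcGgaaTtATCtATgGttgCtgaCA
Mup20: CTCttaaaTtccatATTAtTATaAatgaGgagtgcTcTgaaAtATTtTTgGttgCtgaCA
Mup21: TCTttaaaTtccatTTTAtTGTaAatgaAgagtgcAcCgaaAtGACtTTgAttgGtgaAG
The stretch holds coding bases 224 to 283 of Mup3, 212 to 271 of Mup5 and Mup8, and 215 to 274 of Mup20 and Mup21. Over the whole coding sequence 128 of 552 aligned columns differ. Mup3 and Mup21 were the closest pair, with 94.75% identical coding bases, and Mup3 and Mup8 the most distant, with 82.25%.

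How much of each transcript is its own bears on every value that follows. Of all 50-base stretches of the transcripts, 86.73% of those in Mup3, 82.88% in Mup5, 80.73% in Mup21, 49.49% in Mup20 and 12.47% in Mup8 occur in no other annotated transcript. With 100-base stretches the share was 97.77% for Mup3, 98.67% for Mup5, 95.5% for Mup21, 61.16% for Mup20 and 30.63% for Mup8. At that length Mup20 shared stretches with the pseudogene Mup-ps19 alone, and Mup3 and Mup21 shared them only with each other. Mup8 is therefore the member whose reads are hardest to place, and its counts and those of Mup5 are reported as uncertain.

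The liver libraries held 52.6 to 86.7 M gene counts, with a median of 64.4 M. Levels are given as CPM, the count divided by the library total in M after scaling by the trimmed mean of M values (TMM). Nothing in the labels says that the mice of a group were pooled or littermates. The library labelled control CT08 a, one of 2 male control CT08 columns that carry the same number in the table and so cannot be matched to a replicate by name, stood apart. In the exon-bin files, which are named by replicate, control CT08 replicate 1 had 2147 bin CPM of Mup3 and replicate 2 had 12873, against 1738 CPM in column a and 10263 in column b of the gene table. On a scale of the 1588 other genes that differed most between diets, where controls sit near -1 and MCD libraries near 1, it scored 0.978, while the other 17 controls ran from -1.36 to -0.523. MCD libraries ran from 0.393 to 1.72, with MCD CT04 replicate 1 (1.72) and MCD CT12 replicate 2 (1.66) at the top. Xist, the X-inactivation RNA, was at most 2.93 CPM in males and at least 831 CPM in females, and Ddx3y, a Y-linked gene, was at least 34.2 CPM in males and at most 0.381 CPM in females, so that the labelled sexes held in all 36 libraries. Summed hepatocyte markers (10 genes including Alb and Ttr) were at 94327 to 137308 CPM in controls and 69543 to 139701 CPM on MCD. Control CT08 a was the lowest control, and MCD CT04 replicate 1 the lowest on MCD. Macrophage markers (11 of 12 listed) summed to 352 to 832 CPM in controls and 477 to 1090 CPM on MCD, with control CT08 a at 832, MCD CT04 replicate 1 at 1090 and MCD CT12 replicate 2 at 1055. Stellate cell markers (8 of 10 listed) summed to 658, 849 and 791 CPM in these 3 libraries, the highest values on their diets. On average over time, 9 of 11 macrophage, 3 of 8 stellate cell and 0 of 10 hepatocyte markers were called higher on MCD, and 6 of 10 hepatocyte markers lower, against 25.3% of all genes called higher and 21.2% lower. Both shares are with TMM scaling. With library totals alone as the scale, 2 hepatocyte markers were higher and 4 lower, with a median log2 of -0.06 against 0.27 over all genes. The libraries also fell into 2 kinds by mt-Nd6, a mitochondrial gene read from the other strand than most: 21 libraries (8 control, 13 MCD) had 41.6 to 119 CPM and 15 (10 control, 5 MCD) had 414 to 925 CPM. No label names a batch, and the kinds are compared below where they touch a result. Erythrocyte markers (5 genes) summed to a median of 273 CPM in controls and 143 on MCD, with overlapping ranges. Of these, 4 of 5 were called lower on average, against 21.2% of all genes. Endothelial marker sums had medians of 434 and 475 CPM, and cholangiocyte sums 35.0 and 36.3. In bulk liver, fewer cells of a type and less RNA per cell cannot be told apart. The part of these marker values in the Mup results was not tested.

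Mup3 was the most abundant of the 5 genes in control liver and was lower on MCD in both sexes. In control males it ran from 1738 to 10629 CPM with a median of 9854 (mean 9131 ± 2400, SD, n = 12). In MCD males it ran from 79.6 to 1929 CPM with a median of 1048 (mean 999 ± 504, n = 12). Of the 12 MCD males, 11 lay below every control male, and the overlap came from control CT08 a, at 1738 CPM. Control females had 1368 to 2614 CPM with a median of 1575 (mean 1802 ± 514, n = 6), and MCD females 193 to 324 CPM with a median of 300 (mean 283 ± 48.4, n = 6). All 6 MCD females lay below all control females.

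The fitted Mup3 difference between MCD and control, as log2 fold change from edgeR's quasi-likelihood test with Benjamini-Hochberg adjustment, was -3.07 (SE 0.287, adjusted p = 4.78e-09) averaged over the 6 times. It was -3.27 in males (SE 0.354, adjusted p = 1.31e-07), a fold of 9.62, and -2.67 in females (SE 0.489, adjusted p = 0.000265), a fold of 6.35. The difference between the sexes in that effect, 0.60 (SE 0.567, adjusted p = 0.753), did not pass the threshold. Without control CT08 a the male effect was -3.42, and without the 2 MCD males at the low end it was -3.01. Within libraries of low mt-Nd6, Mup3 averaged 7738 ± 3391 CPM in control males (n = 5) and 1059 ± 507 in MCD males (n = 8), and within those of high mt-Nd6 10126 ± 346 (n = 7) and 877 ± 549 (n = 4). The 2 low MCD males, CT04 replicate 1 at 116 CPM and CT12 replicate 2 at 79.6 CPM, had less Mup3 than any female on MCD, and the other 10 MCD males had at least 875 CPM.

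**Figure D1:**
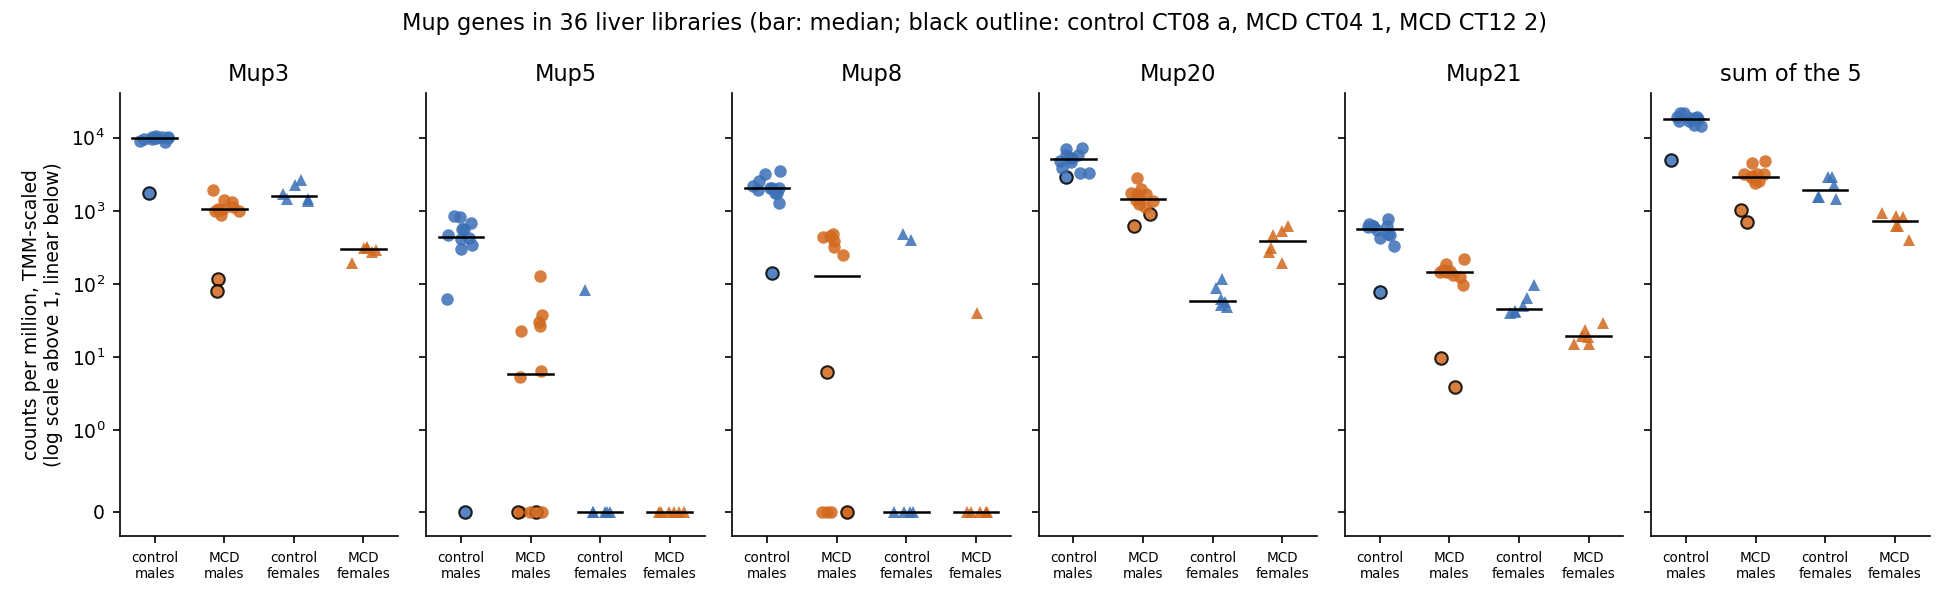
Level of each gene and of their sum in the 36 liver libraries, in CPM on an axis that is linear near 0 and logarithmic above, by diet and sex; each point is a library, the bar is the median, and a black outline marks control CT08 a, MCD CT04 replicate 1 and MCD CT12 replicate 2. Mup20 is lower on MCD in males and higher on MCD in females, with no overlap between diets in either sex.

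Mup20, the darcin gene, moved in opposite directions in the 2 sexes. In control males it ran from 2938 to 7181 CPM with a median of 5022 (mean 4914 ± 1393, n = 12), and in MCD males from 619 to 2830 CPM with a median of 1438 (mean 1510 ± 566, n = 12). All 12 MCD males lay below all control males. In females it was low on control diet, with 49.0, 62.5, 116, 52.3, 88.1 and 55.9 CPM at CT0, 4, 8, 12, 16 and 20 (mean 70.7 ± 26.4, n = 6). On MCD the 6 females had 613, 194, 274, 523, 462 and 313 CPM at the same times (mean 397 ± 161). Every MCD female lay above every control female, and females lay below males on both diets without overlap.

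By the same edgeR test the Mup20 difference was -1.71 in males (SE 0.214, adjusted p = 9.92e-07), a fold of 3.26 lower. In females it was 2.48 (SE 0.312, adjusted p = 3.24e-06), a fold of 5.58 higher. The difference between the sexes in the diet effect was 4.18 (SE 0.384, adjusted p = 1.06e-06). Averaged over all libraries with sex as a term, the 2 directions gave -0.50 (SE 0.491, adjusted p = 0.429), a value that stands for neither sex. Females were below males by 6.16 on the log2 scale on control diet (female minus male -6.16, SE 0.358, adjusted p = 5.48e-12) and less so on MCD (-1.97, SE 0.284, adjusted p = 0.00012). Leaving out a single library or a replicate number kept the female effect between 2.29 and 2.64 and the male effect between -1.99 and -1.41. Mup20 levels also lay apart by library kind: control males of high mt-Nd6 had 4860 to 7181 CPM (n = 7) and those of low mt-Nd6 2938 to 4575 CPM (n = 5). The diets were apart in males of both kinds, with MCD males at 915 to 2830 CPM (high, n = 4) and 619 to 2004 CPM (low, n = 8). Among females of low mt-Nd6, controls averaged 68.8 ± 17.0 CPM (n = 3) and MCD females 371 ± 166 (n = 5), and the 1 MCD female of high mt-Nd6 had 523 CPM against 72.6 ± 38.0 (n = 3). With the kind as a term in the fit, the difference between the sexes was 4.17 (SE 0.363). The pseudogene Mup-ps19, with which Mup20 shares reads, had means in the gene table of 1777 CPM in control males, 524 in MCD males, 15.3 in control females and 137 in MCD females. In exon bins its female groups overlapped, with 0.887 ± 1.17 bin CPM on control diet and 1.24 ± 1.07 on MCD (n = 6 each).

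Mup21, the closest relative of Mup3 by coding sequence, was lower on MCD in males. Control males had 77.9 to 773 CPM with a median of 568.1 (mean 517 ± 183, n = 12), and MCD males 3.96 to 216 CPM with a median of 146 (mean 127 ± 63.4, n = 12). The male groups overlapped through control CT08 a, the lowest control male, and the lowest MCD males were again CT04 replicate 1 (9.76 CPM) and CT12 replicate 2 (3.96 CPM). The log2 difference by edgeR's quasi-likelihood test was -1.88 averaged over the libraries (SE 0.336, adjusted p = 5.72e-05) and -2.11 in males (SE 0.414, adjusted p = 0.000276). From the exon-bin counts described next, the average was -0.37 (SE 0.526, adjusted p = 0.606) and the male value -1.47 (SE 0.545, adjusted p = 0.0471).

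In females the direction of Mup21 depended on which deposited count was used. In the gene table, control females had 40.3 to 96.4 CPM (mean 55.7 ± 21.96, n = 6) and MCD females 15.2 to 29.4 CPM (mean 20.3 ± 5.45, n = 6), and these groups did not overlap. That difference, -1.42 (SE 0.579, adjusted p = 0.0769), did not pass the threshold. It did under DESeq2 (adjusted p = 0.0387), without the 2 low MCD males (0.00296), and without MCD CT04 replicate 1 (0.0444) or MCD CT12 replicate 2 (0.0204) alone. In exon-bin counts, a second table of the same reads by part of each gene, the order was the opposite: control females had 4.35 to 9.44 CPM (mean 5.95 ± 1.89) and MCD females 10.2 to 24.6 CPM (mean 17.2 ± 5.13). The bin-based difference was 1.51 (SE 0.709, adjusted p = 0.138). All 6 Mup21 bins had a higher mean in MCD females than in control females. No direction is given for Mup21 in females for this reason.

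Mup5 and Mup8 were listed at 0 in many libraries of the gene table. Mup5 was at 0 in 17 of 36 libraries: 1 of 12 control males, which was control CT08 a, 5 of 6 control females, 5 of 12 MCD males and 6 of 6 MCD females. Its median was 444 CPM in control males (highest 839) and 5.97 CPM in MCD males (highest 127), and the only control female above 0, at CT4, had 82.2 CPM. Mup8 was at 0 in 14 of 36 libraries: 4 of 6 control females, 5 of 12 MCD males and 5 of 6 MCD females. Control males had 141 to 3515 CPM of Mup8 with a median of 2019, and MCD males 0 to 478 CPM with a median of 127. By library kind, Mup8 in control males averaged 2374 ± 676 CPM at high mt-Nd6 (n = 7) and 1541 ± 902 at low (n = 5). In MCD males it averaged 224 ± 258 CPM at high (n = 4) and 181 ± 202 at low (n = 8). The remaining females had 489 CPM at CT8 and 403 CPM at CT16 on control diet and 39.5 CPM at CT16 on MCD. With genes of this abundance, a 0 can be a failed assignment rather than absence, so no fold is given.

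Both genes passed edgeR's quasi-likelihood test for a lower level on MCD, averaged over the libraries (adjusted p = 0.000137 for Mup5 and 0.00177 for Mup8) and in males (0.00224 and 0.0252). Neither passed in females in the gene table (0.239 and 0.234). In exon bins the Mup5 zeros lay otherwise: 1 of 10 control males, 0 of 6 control females, 7 of 12 MCD males and 3 of 6 MCD females were at 0. Control females had 6.79 to 18.7 bin CPM of Mup5 and MCD females 0 to 0.845, which do not overlap. The average call for Mup8 was lost in exon-bin counts (adjusted p = 0.0850). Its male call was lost without the 2 low MCD males (adjusted p = 0.0739), in exon-bin counts (0.120), and when MCD CT04 replicate 1 (0.0573), MCD CT04 replicate 2 (0.0552) or MCD CT16 replicate 2 (0.0547) alone was left out.

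Counted together, 4 of the 5 genes were called lower on MCD on average over the libraries, against 21.2% of the 20249 genes tested. In males 5 of 5 were called lower, against 17.4% of genes. In females 1 of 5 (Mup3) was called lower and 1 of 5 (Mup20) higher, against 12.4% of genes in each direction. The diet effect was called different between the sexes for 1 of 5, Mup20, against 0.914% of genes called with a higher effect in females.

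**Figure D2:**
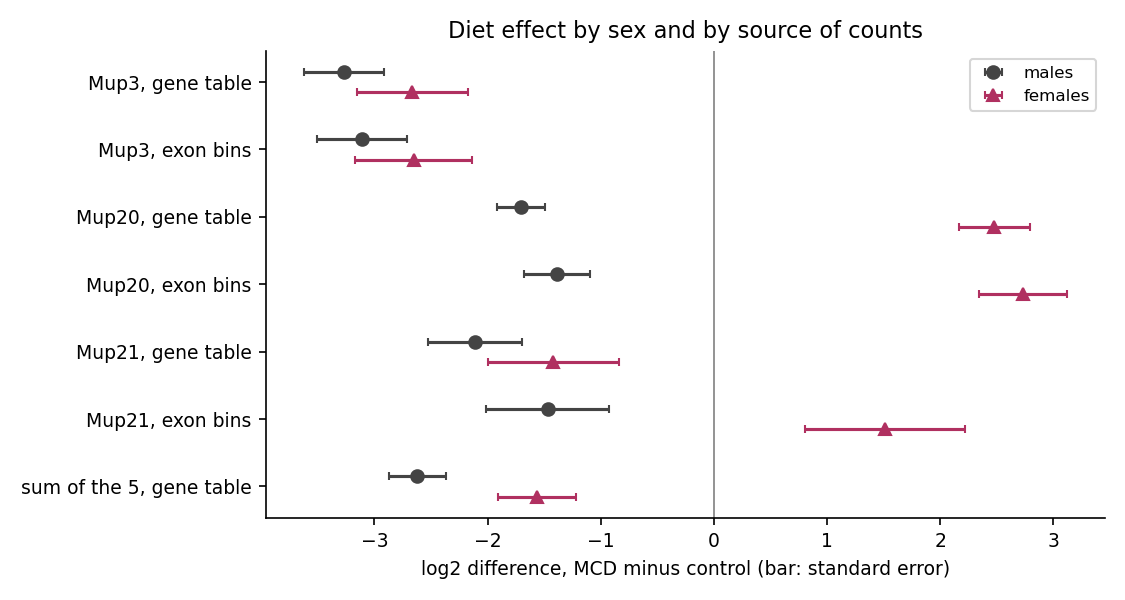
Log2 difference between MCD and control, with its standard error, in males and in females. Mup3, Mup20 and Mup21 are shown from the gene table and from exon-bin counts, and the sum of the 5 genes from the gene table alone. The Mup20 estimates lie on opposite sides of 0 in the 2 sexes in both tables, and the female Mup21 estimate changes sides between the tables.

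Since paralogs share reads, the sum of the 5 genes was also followed. It was 17047 ± 4440 CPM in control males (4896 to 21959, n = 12), 2852 ± 1188 CPM in MCD males (708 to 4857, n = 12), 2091 ± 680 CPM in control females (1457 to 2916, n = 6) and 707 ± 198 CPM in MCD females (402 to 946, n = 6). As a share of all counts this was 1.52%, 0.303%, 0.196% and 0.0788%. The diet groups did not overlap in either sex, although control CT08 a, at 4896 CPM, lay just above the highest MCD male. The log2 difference was -2.62 in males (SE 0.252) and -1.56 in females (SE 0.344), which differ by 1.06 (SE 0.416).

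The size of the sum's female effect turned on which rows were summed. Over all 42 Mup rows, the log2 difference was -2.81 in males (SE 0.363) and -2.85 in females (SE 0.515), a difference of -0.04 (SE 0.593). All 42 rows together took 6.83% ± 2.30 of counts in control males and 1.24% ± 0.629 in MCD males. They took 1.14% ± 0.307 in control females and 0.184% ± 0.0377 in MCD females. The 5 genes made up 21.6% of those counts in the median control male and 40.5% in the median MCD female. Of the 15 other Mup rows that are not pseudogenes, 15 had a lower mean on MCD in females and 15 in males, and 15 were called lower in females by edgeR, against 12.4% of genes tested. Mup20 was the only one of the 20 such rows whose mean was higher in MCD females than in control females. These rows share reads, so that they are not separate observations.

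Per kilobase of exon, the level in the gene table in control males was in the order Mup3 (8549 ± 2247 CPM per kb), Mup20 (5296 ± 1501), Mup8 (2056 ± 866), Mup21 (764 ± 270) and Mup5 (495 ± 284). Mup21 and Mup5 lay within their spread of each other. In MCD males Mup20 (1628 ± 610 CPM per kb) came before Mup3 (935 ± 472) by mean, with overlapping SDs, and Mup8 (198 ± 214) and Mup21 (188 ± 93.7) could not be ordered. In control females Mup3 led with 1687 CPM per kb, and Mup8 (151 ± 235), Mup21 (82.3 ± 32.4) and Mup20 (76.2 ± 28.4) lay within their spread. In MCD females Mup20 (427 ± 174 CPM per kb) came before Mup3 (265 ± 45.3) by mean, again with overlapping SDs. In control females Mup3 was above Mup20 beyond these SDs, and in control males their SDs overlapped. The order of the means depended on the deposited count. In exon bins Mup3 came before Mup20 on MCD by mean, with 1185 ± 595 against 852 ± 333 bin CPM per kb in males and 343 ± 56.7 against 243 ± 104 in females. These SDs overlapped as well, so that neither count orders Mup3 and Mup20 on MCD. In control males Mup8 fell below Mup21 in bins, with 65.0 ± 144 against 463 ± 218 bin CPM per kb. That Mup8 mean was carried by control CT16 replicate 2 (432 bin CPM) and control CT12 replicate 1 (187). The Mup8 median was 1.00 bin CPM.

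The effect of sex within each diet was asked separately. On control diet, 4 of 5 genes were called lower in females than in males by edgeR's quasi-likelihood test, against 4.51% of genes tested. The exception was Mup8 (adjusted p = 0.180), and Mup5 was called (adjusted p = 0.0252). Female minus male was -2.33 for Mup3 (SE 0.451, adjusted p = 0.000904) and -3.23 for Mup21 (SE 0.582, adjusted p = 0.000444). On MCD, 3 of 5 were called lower in females, against 1% of genes. The values there were -1.73 for Mup3 (SE 0.434, adjusted p = 0.0316) and -2.54 for Mup21 (SE 0.560, adjusted p = 0.0124). The Mup3 call on MCD was lost with limma-voom (-1.39, adjusted p = 0.148) and in exon-bin counts (-1.71, adjusted p = 0.0628). Without all libraries of replicate number 1 or of number 2, both male, the calls on MCD were lost for Mup3 (adjusted p = 0.434 and 0.167) and for Mup21 (0.305 and 0.0808).

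By circadian time, Mup3 was lower on MCD at all 6 times. Control males averaged 10086 ± 266, 9701 ± 155, 6001 ± 6028, 9101 ± 619, 9740 ± 1258 and 10156 ± 192 CPM at CT0, 4, 8, 12, 16 and 20 (SD, n = 2 each). MCD males averaged 1081 ± 68.7, 594 ± 676, 1402 ± 745, 536 ± 646, 1194 ± 184 and 1185 ± 289 CPM. The wide spread at CT8 on control and at CT4 and CT12 on MCD came from the 3 libraries named above. The log2 difference at CT0, 4, 8, 12, 16 and 20 was -2.91, -3.93, -2.36, -3.47, -2.85 and -2.88.

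For Mup3 that difference passed edgeR's test at 5 of 6 times, all but CT8 (adjusted p = 0.0881). Without control CT08 a the CT8 value was -2.84 (adjusted p = 0.0118). Each of the 5 calls was lost in at least 1 of the 3 fits that left out all libraries of a replicate number, with adjusted p of up to 0.192. The share of genes called lower was 6.02% at CT0, 8.71% at CT4, 0.751% at CT8, 7.13% at CT12, 5.98% at CT16 and 5.6% at CT20. Mup21 was called at CT4 (-2.88, adjusted p = 0.0203), a call lost without replicate number 1 (adjusted p = 0.327) or 3 (0.131). Mup5 was called at CT4 (adjusted p = 0.0248). Mup8 and Mup20 were called at none of the 6 times by edgeR. The test at each time pools the sexes, whose Mup20 effects ran opposite ways, and without replicate number 3, the females, Mup20 was called lower at CT4 (-2.17, adjusted p = 0.0207). Mup8 was below an unadjusted p of 0.05 at CT4 and CT8, as were 6332 and 2550 of the 20249 genes tested, and Mup20 at none. With all libraries neither Mup8 nor Mup20 was called at any time by DESeq2 or limma-voom. For the sum of the 5 the difference ran from -3.14 at CT4 to -1.98 at CT0.

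No 24 h rhythm of any of the 5 genes was called on either diet by edgeR, against 17.8% of genes on control and 28.2% on MCD, nor a difference in rhythm between diets, against 4.87% of genes. At an unadjusted p under 0.05 edgeR gave 0 of 5 on control, 1 of 5 on MCD (Mup8, adjusted p = 0.0858) and 0 of 5 for the difference. Of all 20249 genes tested, 6373, 7832 and 4029 were under that p in the same order. DESeq2 called Mup8 on MCD (adjusted p = 0.0402), and limma-voom called none. The fitted peak-to-trough size, in log2 units, was 0.24 on control and 0.40 on MCD for Mup3, 0.36 and 0.64 for Mup20, and 0.44 and 0.54 for Mup21. What size of rhythm the design can detect for these genes was not tested.

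**Figure D3:**
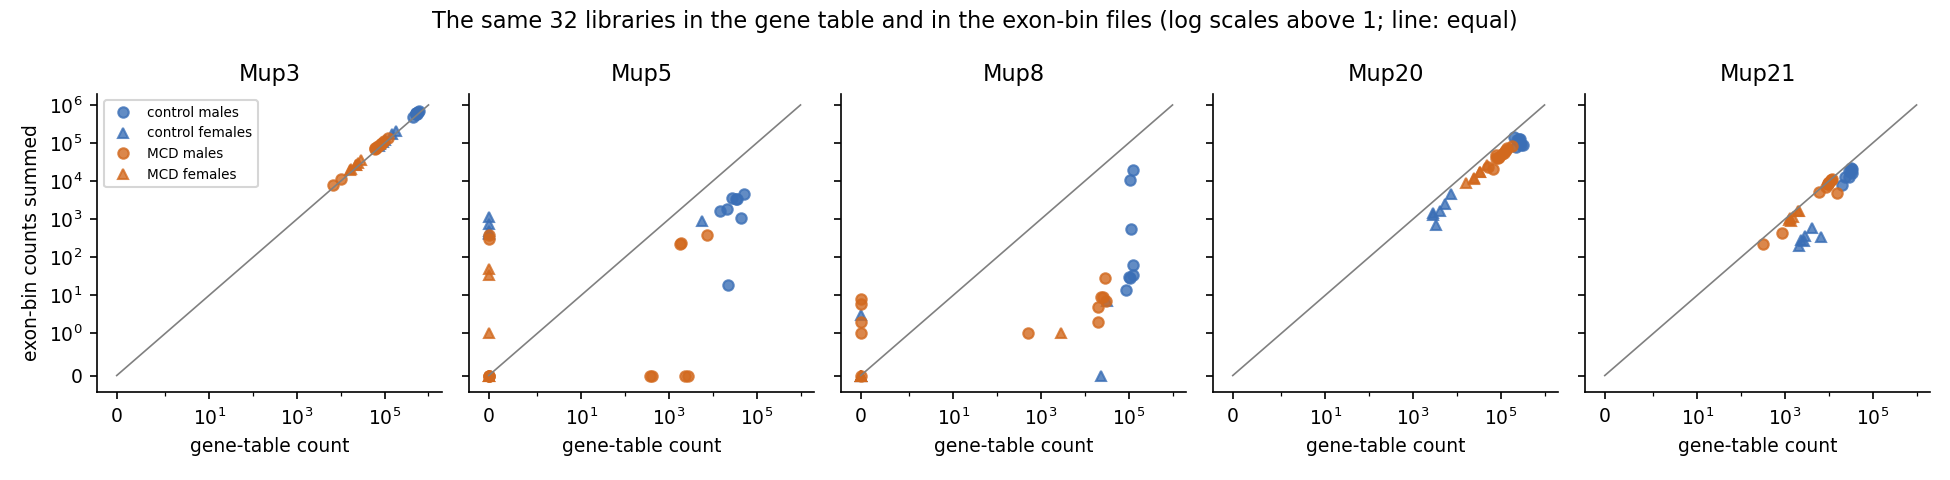
Exon-bin counts against gene-table counts of each gene in 32 liver libraries, on logarithmic axes. Points for Mup3 lie near the line of equality, those for Mup8 far below it.

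The exon-bin counts give a check on how reads were divided between the copies. Over the 32 libraries with both counts, bins held 115% of the gene-table count for Mup3, 60.8% for Mup21, 44.8% for Mup20, 9.11% for Mup5 and 2.80% for Mup8. Over 14824 genes with more than 1000 counts the median was 82.4%, and 1.91% of genes lay below Mup8. In 10 of the 16 libraries where the gene table lists Mup5 at 0 its bins held reads, and in 5 of 14 for Mup8. Mup21 bins held 55.5% of the gene-table count in control males, 81.5% in MCD males, 77.1% in MCD females and 9.69% in control females.

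The Mup20 result held in the bins. Control females had 12.2 to 74.6 bin CPM (mean 35.6 ± 21.9, n = 6) and MCD females 119 to 358 (mean 226 ± 96.5, n = 6), without overlap. Control males had 2201 ± 538 bin CPM (n = 10) and MCD males 790 ± 309 (n = 12). The bin-based log2 difference by edgeR was -1.39 in males (SE 0.290, adjusted p = 0.00105) and 2.73 in females (SE 0.388, adjusted p = 3.29e-05), and 4.12 between the sexes (SE 0.504, adjusted p = 6.55e-05). For Mup3 it was -3.11 in males and -2.65 in females. In bins 0.612% of genes were called with a higher diet effect in females, Mup20 among them. How the counting program assigned reads that match several copies is not given in the sources used here, and its part in the results was not tested.

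Promoter sequence was at hand for Mup3 and Mup21, the closest pair by coding sequence. Across the 36 libraries, which share diet and sex, their log2 levels had Pearson's r = 0.93 and Spearman's rho = 0.83, as a description. For Mup3 and Mup20 r was 0.54 over all libraries and 0.93 over the 24 males, and for Mup3 and Mup21 it was 0.95 over the males. The sequences, 300 bases around the start, are RefSeq's on GRCm38.p6, minus strand, at chr4:62087268-62087567 for Mup3 and chr4:62150792-62151091 for Mup21. Capitals mark the motif TATATAAGG.
Mup3: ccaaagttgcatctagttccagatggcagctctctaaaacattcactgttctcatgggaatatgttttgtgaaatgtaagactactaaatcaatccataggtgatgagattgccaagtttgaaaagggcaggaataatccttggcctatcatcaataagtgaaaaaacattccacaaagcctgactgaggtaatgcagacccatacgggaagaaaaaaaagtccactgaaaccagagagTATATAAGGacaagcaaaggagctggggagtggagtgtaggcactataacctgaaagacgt
Mup21: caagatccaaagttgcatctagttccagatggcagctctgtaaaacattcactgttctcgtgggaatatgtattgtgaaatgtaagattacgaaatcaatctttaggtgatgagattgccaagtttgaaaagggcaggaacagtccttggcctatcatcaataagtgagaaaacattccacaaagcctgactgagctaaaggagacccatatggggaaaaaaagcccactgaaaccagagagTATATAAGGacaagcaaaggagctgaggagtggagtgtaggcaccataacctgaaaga
The 2 sequences were identical at 93.88% of 294 aligned positions. TATATAAGG, chosen after these sequences had been seen, starts at position 240 in Mup3 and 243 in Mup21, which in both lies downstream of the gene start annotated in GENCODE M21, inside the gene. It occurs on either strand in 0.307% of 32851 promoters of the same length. The STAT5-type motif TTCNNNGAA, found in 8.30% of promoters, and the E-box CACGTG, found in 7.15%, were not matched in these windows on either strand, nor was TATAAA, found in 13.6%.

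Genes known to share the Mup genes' dependence on sex and growth hormone were read for context. Of 15 male-biased genes, 13 were called lower on MCD on average and 0 higher, against 21.2% of all genes called lower (median log2 -1.93, against 0.02 over all genes). In males 15 of 15 were lower, against 17.4% of genes, and in females 6 were lower and 2 higher, against 12.4% of genes in each direction. The 4 with the strongest average change by the naming rule were Serpina1e (a serpin, log2 -2.63, SE 0.272, adjusted p = 2.15e-08), Hsd3b5 (a steroid dehydrogenase, -2.60, SE 0.535), Cyp4a12b (a fatty acid hydroxylase, -2.36, SE 0.333, with -2.77 in males and -0.08 in females) and Slco1a1 (an organic anion transporter, -2.32, SE 0.353). Cyp4a12b averaged 73.6 CPM in control males and 11.5 in MCD males, but 0.283 in control females and 0.280 in MCD females. Its female value therefore comes from a very low level. The 2 male-biased genes that rose in females, Gstp1 and Cyp2d9, are named here after their values were seen. Gstp1, a glutathione transferase, averaged 782 CPM in control males, 511 in MCD males, 86.1 in control females and 371 in MCD females (male log2 -0.61, adjusted p = 0.00316, and female log2 2.06, adjusted p = 6.35e-07). Cyp2d9, a male-specific P450, averaged 1327, 515, 49.6 and 109 CPM in the same order (male log2 -1.42, adjusted p = 0.000586, and female log2 1.17, adjusted p = 0.0465).

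Of 20 female-biased genes, 8 were called higher and 1 lower on average (median 0.63), against 25.3% of all genes called higher. In males 13 rose and 1 fell, against 22.2% of genes called higher and 17.4% lower, and in females 0 rose and 6 fell, against 12.4% of genes in each direction. Examples were the P450 enzyme genes Cyp2b9, with log2 4.48 in males and -1.08 in females (adjusted p = 0.420 in females), and Cyp2a4, with 3.85 in males and 0.30 in females (adjusted p = 0.827 in females). Their averages of 2.75 and 2.73 stand for neither sex. Sult3a1, a sulfotransferase, had -2.82 in males and -6.35 in females, both called by edgeR. The difference between the sexes in the diet effect was called for 6 of 15 male-biased genes, all with a higher effect in females. It was called for 9 of 20 female-biased genes, all with a lower one. Over all genes 0.914% were called with a higher effect and 0.859% with a lower one. The sex difference on MCD was called for 12 of 15 and 13 of 20, after 15 of 15 and 20 of 20 on control diet. Over all genes, 1.23% were called higher in females on MCD and 5.36% on control diet, and 1% and 4.51% were called lower.

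**Figure D4:**
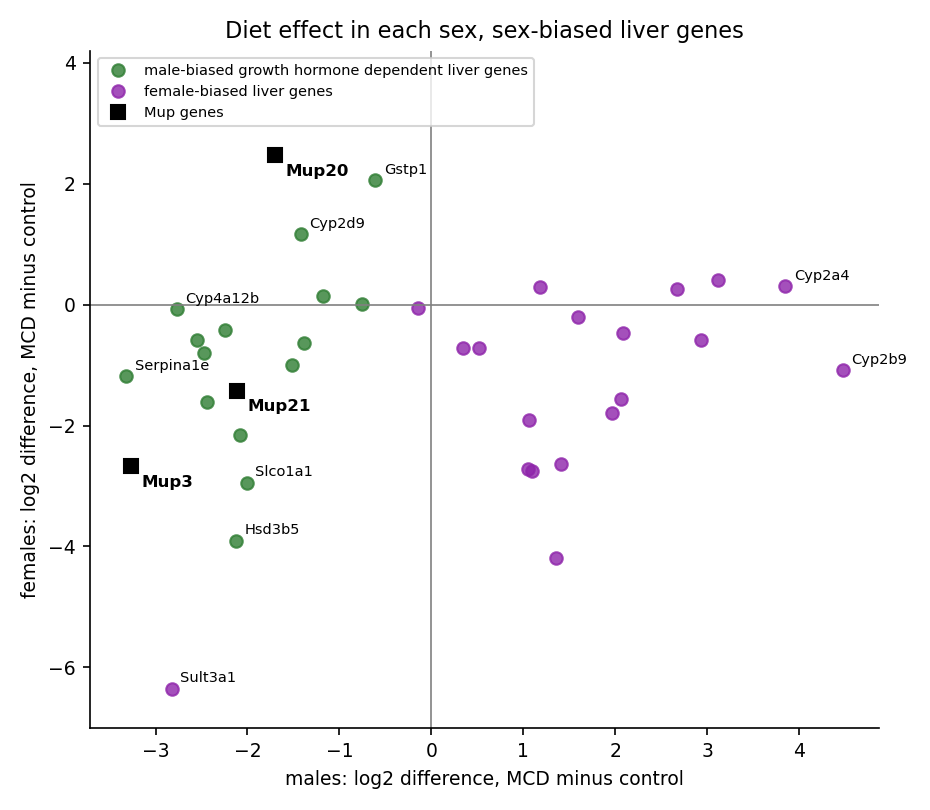
Log2 difference between MCD and control in females against that in males for 15 male-biased and 19 female-biased liver genes, with Mup3, Mup20 and Mup21 as squares. Mup20 lies at -1.71 for males and 2.48 for females.

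Of 16 genes of growth hormone signalling and hormone receptors that act on Mup genes, 9 were called lower and 1 higher on average (median -0.42), or 7 lower and 4 higher with library totals alone. With TMM scaling 21.2% of all genes were called lower and 25.3% higher. With library totals alone the median of the list was -0.17, against 0.27 over all genes. Ghr, the growth hormone receptor, fell from a mean of 570 to 282 CPM in males and from 445 to 233 CPM in females (log2 -0.997, SE 0.118, adjusted p = 1.45e-07). Igf1, the main hormone induced by growth hormone in liver, had log2 -1.13 (SE 0.0885, adjusted p = 2.08e-10). Bcl6, a repressor of female-biased genes in males, had -0.82 (adjusted p = 0.00965), and Cish, a feedback inhibitor of the pathway, -0.75 (adjusted p = 0.0157). Stat5b (-0.42), Nr3c1, the glucocorticoid receptor (-0.48), and Thrb, a thyroid hormone receptor (-0.42), were also called lower by edgeR. With library totals alone these 3 values were -0.16, -0.22 and -0.17. The kinase gene Jak2 (0.02), Stat5a (0.06) and the inhibitor Socs2 (-0.25) did not pass. Esr1, the estrogen receptor, was lower in females (-1.10, adjusted p = 9.13e-05) and was the only gene of the list whose diet effect was called different between the sexes (-1.21, adjusted p = 0.00336).

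Of 16 liver transcription factors, 5 were called lower and 0 higher on average, but 1 lower and 7 higher with library totals alone, so that no direction is given for the list. With TMM scaling 21.2% of all genes were called lower and 25.3% higher. With library totals alone the median log2 of the list was 0.11, against 0.27 over all genes. Onecut1, a hepatocyte factor that responds to growth hormone, had -1.46 (adjusted p = 8.33e-05), and Zhx2, a factor known to act on Mup genes, -0.04, which did not pass. Of 11 other lipocalins in the table (14 listed), 4 were called lower and 1 higher with TMM scaling, against the same shares of all genes. With library totals alone 3 were lower and 2 higher, with a median of -0.02 against 0.27 over all genes. The 1 called higher with TMM scaling was Lcn2, the iron-siderophore binding lipocalin, at 2.49 (adjusted p = 0.000362). It had 3.57 in males (adjusted p = 2.86e-06) and 0.17 in females (adjusted p = 0.893). Its mean in MCD males was 60.9 CPM, with 229 CPM in CT04 replicate 1 and 232 CPM in CT12 replicate 2. Scaling by library totals alone moved the median difference of all genes from 0.02 to 0.27.

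The genes whose levels ran most alike with the 5 were named by Pearson's r over the 36 libraries among 8440 genes of at least 10 CPM, with Mup rows left out. For the sum they were Ttc39c (r = 0.967), C8b (0.966), Ces3a (0.963), Ugt2b1 (0.960) and Selenbp2 (0.949). For Mup3 they were Cmah (0.974), Serpina1a (0.968) and Serpina1c (0.964). For Mup20 they were Alas2 (0.964), Cyp2d9 (0.940) and Cyp4a12b (0.924), and for Mup21 Ces3a (0.958), Slco1a1 (0.949) and Nudt7 (0.948). For Mup5 they were Cyp7b1 (0.836), Ces3a (0.835) and C8b (0.833), and for Mup8 Mindy3 (0.777), Ttc39c (0.769) and C8b (0.769). These libraries share diet and sex, so that many genes track a Mup gene. Over the 24 male libraries alone, only C8b for the sum and Slco1a1 for Mup21 stayed among the most alike. By Spearman's rho over all libraries, no gene named for Mup3 or Mup5 stayed among them.

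In the SCN table, of 15759 rows, 0 are Mup rows. Exon bins of the 36 SCN libraries held 18 Mup3 counts in 2 libraries and 9 Mup20 counts in 1, out of 1573083746 counts, and 0 for Mup5, Mup8 and Mup21.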

How the data were processed

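Liver and SCN RNA of 72 libraries was sequenced from poly-A selected, stranded mRNA libraries, per the labels' protocols. Per the submitters' processing notes Trimmomatic, HISAT2, StringTie and DESeq2 were used with the GRCm39 build; no versions are given, nor how reads that match several genes were handled. The authors deposited a table of whole-number counts per gene for liver and a count of reads per exon bin for each library. Levels are computed here as CPM, the count over the TMM-scaled library total in M, per kb of exon where genes are compared with each other. Labels give 2 males and 1 female per group, and these were followed, although the protocol text speaks of males.

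All 20249 genes passing edgeR's filter with a minimum count of 10 were fitted with edgeR 4.0.16 (quasi-likelihood, robust, R 4.3.3) on 36 liver libraries, with 12 groups of diet and time and a sex term, and with a sex by diet term for the comparisons of the sexes. P-values were adjusted by Benjamini-Hochberg over all genes, with a threshold of 0.05. DESeq2 1.42.0 and limma-voom (limma 3.58.1) were alternatives. The fit was tested on simulated data. P-values measure the spread between these libraries. The text names the 5 members and their sum, at most 4 genes of each list with the largest called change, hormone receptors and signalling genes, and the genes most like each member. Some genes of the lists enter the counts and are not reported here singly. Members and lists were chosen with earlier results of these data known. The exon-bin files of control CT0 replicates 1 and 2 end early and were left out, so that 34 were used, and 32 could be matched to a column of the gene table. Positions and transcripts are those of GENCODE M21, aligned with MAFFT 7.526. Of 16 same-numbered pairs 5 had deviations that correlated above 0.1, short of every pair, and the numbers were not used as pairs.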

Additional observations from a re-analysis of the deposited data

Results flagged for a closer look

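Mup20 was flagged because its diet effect differed between the sexes by 4.18 on the log2 scale, higher in females, by the sex by diet term of edgeR's quasi-likelihood test. The same test gave a difference of 2.67 for Gstp1, 2.69 for Cyp4a12b, 2.59 for Cyp2d9 and 2.14 for Serpina1e among the male-biased genes. It gave -5.56 for Cyp2b9 among the female-biased genes and -3.40 for the lipocalin Lcn2. Each of these values is a difference of 2 differences, on 6 female libraries per diet. Cyp4a12b averaged only 0.28 CPM in females on either diet.

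Among groups of 6 females, 2 values stood far from the other 5: Mup5 at CT4 in a control female (82.2 CPM, the others at 0) and Mup8 at CT16 in an MCD female (39.5 CPM, the others at 0). With 5 values tied at 0, any value above 0 is flagged, so that the usual chance rate of 1 in 20 groups does not apply. In exon bins all 6 control females held Mup5 reads (6.79 to 18.7 bin CPM), and the female at CT4, with 14.4, was not the highest.

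Exon bins of the SCN, a tissue in whose gene table no Mup row is listed, held reads of Mup3 in 2 of 36 libraries, at most 13 counts in a library, and of Mup20 in 1 library, with 9 counts.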

How the results depend on the processing

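Female values rest on 1 female per group of diet and time, with 6 per diet, and 1 control library, control CT08 a, sits among the MCD libraries by its other genes. Mup8 has few sequences of its own and Mup5 has many zeros, so neither gets a fold. Of the settings tried, counts of genes called moved by over 1.5 times in 11 of 141 cases with another setting and 36 of 184 with a library or replicate left out. The diet effects of Mup3, Mup20 and Mup21 in males, those of Mup3 and Mup20 in females and the Mup20 difference between the sexes kept direction and call under each alternative run.

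With DESeq2, 733 genes had a diet effect that differed between the sexes (edgeR 359), 830 differed by sex on MCD (edgeR 452), 2017 differed in rhythm (edgeR 986) and 650 differed by diet at CT8 (edgeR 263). Without the 2 low MCD males 697 genes differed by sex on MCD, and without control CT08 a 1212 differed by diet at CT8. With library totals alone 3971, 6475, 4162 and 3560 genes differed by diet at CT0, 12, 16 and 20, against 2550, 3082, 2531 and 2288. The replicate block gave 651 genes for the difference in rhythm.

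Mup3 by sex on MCD was -1.39 with limma-voom and -1.71 in bins, below the threshold. Mup8 lost its call by adjusted p for the average effect in bins (0.0850, or 0.101 without control CT08 replicate 1) and in males with library kind as a term (0.0598), without the 2 low MCD males (0.0739) and in bins (0.120, or 0.138 without control CT08 replicate 1). The average Mup20 effect, which pools opposite directions, was 0.12 with limma-voom, -1.73 in males alone, and 0.081 in bins or 0.067 without control CT08 replicate 1. By time Mup20 was 0.21 with library totals alone, 0.67 with limma-voom and 0.11 with library kind at CT0; 0.75 with the replicate block at CT8; -0.18 with library kind at CT12; and 0.14 and 0.20 with limma-voom at CT16 and CT20. Average Mup21 in bins was -0.37, or -0.45 without control CT08 replicate 1. Mup21 in females was -1.42 with DESeq2, -1.45 without the 2 low MCD males and -1.40 in females alone, which passed, and 1.51 in bins or 1.54 without control CT08 replicate 1, which did not. Over all Mup rows the sum's female effect was -2.85, or -2.97 without pseudogenes. Its difference between the sexes was -0.041 or -0.13, and its sex effect on MCD -2.70 or -2.76. The cause was not tested.

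With each replicate number or library left out in turn, counts of genes called ran from 6387 to 10049 for the average effect. They ran from 3071 to 8891 in males, 3769 to 5460 in females and 19 to 497 for the difference between the sexes. Single libraries were left out for these effects alone. The ranges by sex within a diet come from leaving out replicate number 1 or 2. Those by time and for rhythm come from leaving out each of the 3 numbers. By sex the counts ran from 892 to 961 on control and 99 to 126 on MCD. By time they ran from 84 to 1444, 330 to 2450, 8 to 54, 54 to 2000, 323 to 961 and 237 to 1495 at CT0, 4, 8, 12, 16 and 20, and for rhythm from 564 to 2889 on control, 2448 to 3624 on MCD and 4 to 537 for the difference. Mup20 ran from -1.73 to 0.50 on average, and from -1.77 to 1.60, -2.17 to -0.35, -1.65 to -0.22, -1.61 to 1.40, -1.65 to 0.62 and -1.50 to 0.34 at CT0, 4, 8, 12, 16 and 20. The CT4 value without replicate number 3 passed (adjusted p = 0.0207). Mup21 in females ran from -1.58 to -1.25 and by sex on MCD from -2.42 to -2.28, Mup3 by sex on MCD from -1.70 to -1.39, and the adjusted p of Mup8 in males from 0.0104 to 0.0845.

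With the replicate number as a block, the Mup20 difference between the sexes was 4.36, the Mup3 male effect -3.45 and the Mup21 male effect -2.25, and apart from the CT8 sign of Mup20, at an adjusted p of 0.910, it changed no call of these genes. Of 16 same-numbered pairs 5 correlated above 0.1 (r -0.215 to 0.291). Mup5 could not be fitted with the block or without the library control CT08 b.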

Other observations

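The other 15 Mup rows that are not pseudogenes followed Mup3 more than Mup20. In females 15 of 15 were called lower on MCD by edgeR's quasi-likelihood test, with log2 differences from -9.18 to -3.21, and in males 14 of 15, from -4.35 to -1.83, against 12.4% and 17.4% of genes called lower. The difference between the sexes was called for 0 of 15, against 0.859% of genes called lower and 0.914% higher, with a range of -6.47 to 0.09. Some of these rows were at 0 in part of the 36 libraries, as Mup1 in 9 and Mup9 in 3, and paralogs share reads. The ends of these ranges are therefore uncertain, and the 15 rows are not separate observations. The level of Mup-ps19, the pseudogene that shares 100-base stretches with Mup20, had r = 0.94 with Mup20 over the 36 libraries, as a description, and its exon bins held 0.697% of its gene-table count over 32 libraries. Reads of Mup20 and Mup-ps19 cannot be fully told apart in the gene table. The heme synthesis gene Alas2, first among the genes most like Mup20 over the 36 libraries, averaged 98.9 CPM in control males and 46.2 in MCD males. It averaged 9.26 in control females and 21.4 in MCD females.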
